A study of Homo sapiens with 6 samples.

Results

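The 5 miRNAs described here are hsa-miR-127-3p, hsa-miR-409-3p, hsa-miR-432-5p, hsa-miR-493-5p and hsa-miR-412-5p, written below without the species prefix, all made from the imprinted DLK1-DIO3 region of human chromosome 14q32. They were chosen by name from the names read from that region, with earlier results of these data known. They are 5 of the 1007 miRNA names in the table of counts, 497 of them known human miRNAs and 510 predicted sequences. The small RNA came from extracellular vesicles that MHCC97H cells, an established human hepatoma line of high metastatic potential, released into their medium. The control group held 3 samples and the treated group held 3 samples of cells that had 24 h with 4 µmol/L xanthatin, a plant-derived sesquiterpene lactone. Control samples are titled Blank, with no time given for them in the labels. DMSO, the solvent, was at 0.5% in all experiments according to the labels' protocols, and the medium of all cells held 5% fetal bovine serum beside 5% serum freed of exosomes. The counts do not separate RNA of the cells from RNA of the medium. The labels do not say that the 3 samples of a group were separate cultures, so the p-values measure the spread between these samples, which may be technical.

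In the imprinted DLK1-DIO3 region the parental origin of a chromosome sets which genes it expresses. The paternal copy makes the protein-coding genes DLK1, RTL1 and DIO3, while the maternal copy makes long noncoding RNAs such as MEG3 and MEG8, with rows of small nucleolar RNAs and one of the largest groups of miRNAs in the genome. In adult tissue these miRNAs are best known from brain and muscle, in development from placenta and embryo, and raised levels have been described in a subset of liver cancers with stem cell features.

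The mature sequences are shown first because each miRNA recognises its targets mainly through its seed, bases 2 to 8, printed in capitals. They are from RefSeq (GRCh38.p14), where all 5 names were found, and run 5′ to 3′.
miR-493-5p: uUGUACAUgguaggcuuucauu
miR-127-3p: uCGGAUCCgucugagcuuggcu
miR-432-5p: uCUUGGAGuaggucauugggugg
miR-409-3p: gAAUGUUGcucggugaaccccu
miR-412-5p: uGGUCGACcaguuggaaaguaau
The 5 seeds all differ, and 0 other names of the RefSeq table's 2370 mature names shared any of them. The nearest other mature miRNA, compared base by base from the 5′ end with missing end bases counted as mismatches, differed from miR-409-3p and from miR-412-5p at 9 positions and from each of the others at 10. Each mature name had 1 precursor. The 5 are thus separate sequences, of 22 or 23 bases, that share neither seed nor near copy.

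All 5 precursors lie on the plus strand of chromosome 14 (GENCODE release 29, GRCh38, the build named in the submitters' processing notes as hg38). They form an upstream group of 3 and a downstream pair. MIR493 spans positions 100869060 to 100869148, MIR127 spans 100882979 to 100883075 and MIR432 spans 100884483 to 100884576, all in an intron of the noncoding transcript AL117190.1. MIR127 and MIR432, with 1407 bases between them, also lie opposite an exon of RTL1, the retrotransposon-derived gene of the paternal copy that is needed in the placenta. After 180.7 kb come MIR409, from 101065300 to 101065378, and MIR412, from 101065447 to 101065537, with 68 bases between them in an intron of the noncoding transcript MEG9.

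Of each precursor 1 arm was listed among the deposited counts. The hairpins that RefSeq gives for MIR493, MIR127 and MIR409 are printed with the counted arm in capitals, to show which side of the stem it comes from.
MIR493: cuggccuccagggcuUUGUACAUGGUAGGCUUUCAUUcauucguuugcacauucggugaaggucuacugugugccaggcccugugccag
MIR127: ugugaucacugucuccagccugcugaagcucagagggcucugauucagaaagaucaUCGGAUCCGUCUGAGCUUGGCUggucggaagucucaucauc
MIR409: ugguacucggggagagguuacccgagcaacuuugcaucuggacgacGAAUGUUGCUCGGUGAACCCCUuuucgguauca
In MIR493 the counted arm is on the 5′ side, and in MIR127 and MIR409 it is on the 3′ side.

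Control libraries held 63965 to 80088 miRNA counts and treated libraries 204520 to 267956, so the treated libraries were the deeper ones. Levels are given as counts or as CPM, counts scaled to a common miRNA total with TMM factors. A single count equalled 11.4 to 13.3 CPM in the controls, against 4.18 to 5.57 CPM after treatment. In the edgeR quasi-likelihood test of all miRNAs with enough counts, 43 of 254 were lower in treated libraries at an adjusted p under 0.05 (16.9%) and 34 were higher (13.4%); with library totals only as the scale, the split was 60 lower and 21 higher. miR-122-5p, by which liver cells are best recognised, was read at 2848 to 4535 counts in control and at 218 to 236 in treated libraries.

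The 5 imprinted miRNAs together held 180, 206 and 165 counts in control replicates 1, 2 and 3 and 1, 4 and 0 counts in treated replicates 1, 2 and 3. Every one of these 15 control values but 1 was 8 counts or more, and no treated value was above 3. miR-127-3p, miR-409-3p, miR-432-5p and miR-493-5p fell in the edgeR test. Their raw counts did not overlap between the groups, which was so, in this direction, for 10.6% of the tested miRNAs. Because the treated libraries were deeper, that share would be at least as large on the CPM scale. The 4 imprinted miRNAs met the count filter by their control counts alone. They thus had to differ once tested, and their number is no support in itself. miR-412-5p did not pass the filter. Fewer vesicles that carry these miRNAs and less of them per vesicle cannot be told apart in these data.

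In the upstream group, miR-493-5p, reported to restrain metastasis of carcinoma cells, had 30, 18 and 8 counts in control replicates 1, 2 and 3 and 0 counts in each treated library. Its control level was 226 ± 118 CPM (SD, n = 3). At the control rate the treated libraries would have held 145.9 counts in all. It was at least 48.6-fold lower after treatment (a group at 0 is set to 3 counts over its libraries), and its adjusted p in the edgeR quasi-likelihood test was 0.00839. Without treated replicate 1 or 2 the bound was 32.3 and 30.1, because the floor of 3 counts then rests on fewer reads.

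miR-127-3p, which pairs fully with RTL1 RNA and directs its cutting, had 32, 91 and 62 counts in control replicates 1, 2 and 3 and 0, 3 and 0 in treated replicates 1, 2 and 3. This is 780 ± 393 CPM in control and 4.18 ± 7.24 CPM after treatment (SD, n = 3 each). The lowest control library held 32 counts and the highest treated library 3, although the latter was the deepest of all. The ratio of control to treated rates was 161 (exact 95% Poisson interval 54.1 to 786, counting error only) and the adjusted p in edgeR was 0.00561. Leaving out treated replicate 2, which held its 3 counts, made it at least 99.6-fold lower, and without treated replicate 1 the ratio was 107.

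miR-432-5p, the neighbour that also lies opposite RTL1, had 33, 39 and 58 counts in control replicates 1, 2 and 3 and 0 counts in each treated library. Its control level was 548 ± 203 CPM (SD, n = 3), and 338.6 counts would have been read in treated libraries at the control rate. It was at least 113-fold lower, with an adjusted p of 0.00306 in edgeR. The bound was 75.1 without treated replicate 1 and 70.0 without replicate 2.

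In the downstream pair, miR-409-3p, reported to repress the vessel growth factor angiogenin, had 32, 23 and 37 counts in control replicates 1, 2 and 3 and 1, 0 and 0 in treated replicates 1, 2 and 3. It had the smallest spread of the 5 among controls, 383 ± 102 CPM (SD, n = 3), against 1.58 ± 2.74 CPM after treatment. The ratio was 240 (exact 95% Poisson interval 41.9 to 9566) and the adjusted p in edgeR was 0.0035. Leaving out treated replicate 1, which held its single count, made it at least 53.1-fold lower, and without treated replicate 2 the ratio was 149.

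miR-412-5p, whose precursor follows that of miR-409-3p on the chromosome, had 53, 35 and 0 counts in control replicates 1, 2 and 3 and 0, 1 and 0 in treated replicates 1, 2 and 3. It was the only one of the 5 whose groups overlapped, through control replicate 3. At 349 ± 314 CPM (SD, n = 3) in control and 1.39 ± 2.41 CPM after treatment, its ratio was 229 (exact 95% Poisson interval 40.1 to 9154). The ratio was 143 without control replicate 1 and 152 without treated replicate 1, and without treated replicate 2 it was at least 47.4-fold lower. It was tested in 6 alternative fits and passed in 2. With no filter its log2 fold change in edgeR was -6.88 (adjusted p = 0.018), with a filter of mean CPM 10 it was -7.09 (adjusted p = 0.0804), and without control replicate 3 it passed the default filter at -7.74 (adjusted p = 0.00773). Without any one treated replicate it was tested and did not pass (edgeR adjusted p = 0.108 to 0.119). Leaving out control replicate 3 removes its only control value of 0. Apart from the fit with no filter, miR-412-5p entered these fits by its control counts alone. The passes are therefore no support in themselves.

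**Figure D1:**
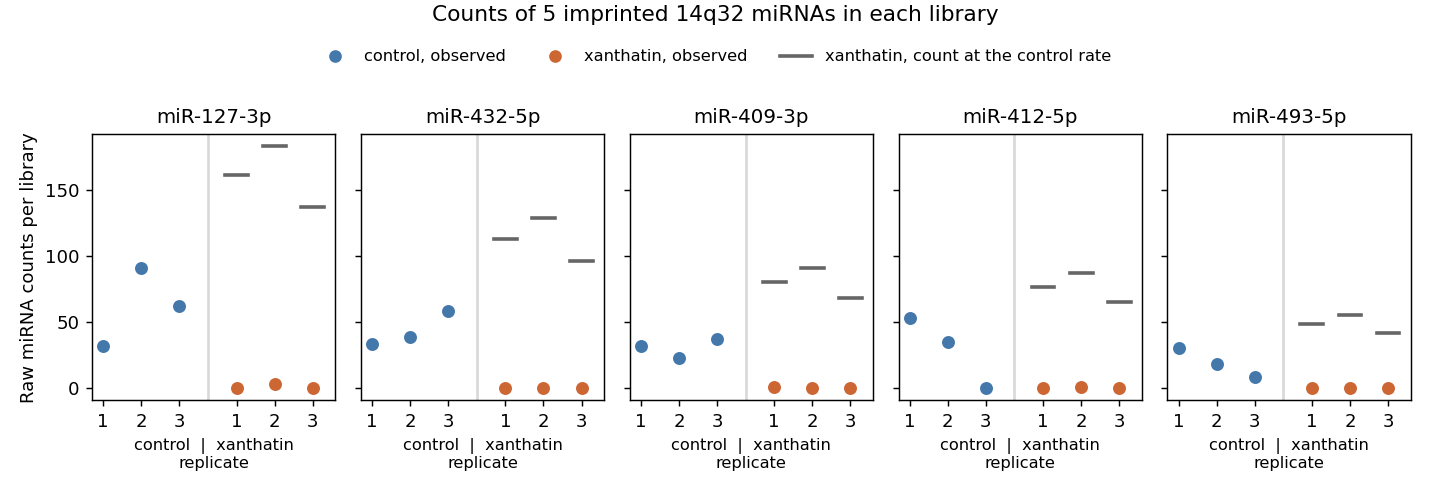
Raw counts per library (y axis, linear) of the 5 imprinted 14q32 miRNAs, one panel each, with control replicates 1 to 3 on the left and treated replicates 1 to 3 on the right. Points are observed counts, and grey bars mark the counts each treated library would hold at the pooled control rate. All treated points lie between 0 and 3, while the grey bars run from 41.6 to 183.

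In control libraries the order of mean levels was miR-127-3p, miR-432-5p, miR-409-3p, miR-412-5p and miR-493-5p, on the CPM scale. The ranges of every pair of neighbours in this order overlapped, so the order is not resolved by 3 libraries. It also changed from library to library. miR-412-5p was the highest of the 5 in control replicate 1 and had 0 counts in control replicate 3, while miR-127-3p was below miR-412-5p and miR-432-5p in replicate 1, level with miR-409-3p at 32 counts, and highest in replicates 2 and 3.

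The spread between controls differed among the 5. The chi-square per degree of freedom over the 3 control libraries, which is near 1 where only counting error acts, was 2.12 for miR-409-3p, 4.89 for miR-493-5p, 6.09 for miR-432-5p, 16.9 for miR-127-3p and 21.4 for miR-412-5p. This measure also grows with the count. Its median over the 252 tested miRNAs with a control count was 8.17. So 3 of the 5 lay below that median, and miR-127-3p and miR-412-5p lay above it.

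On the deposited TPM scale, which relates the counts to a total of reads larger than the miRNA counts, the treated libraries were again lower. miR-432-5p had 2.72, 3.93 and 6.17 TPM in control replicates 1, 2 and 3 and 0 in each treated library. miR-127-3p had 2.64, 9.18 and 6.59 TPM in the controls and 0, 0.0942 and 0 after treatment. All miRNA counts made up 0.66% to 0.708% of that total in control and 0.761% to 0.841% in treated libraries. The miRNA share of the total was thus higher, not lower, in the treated libraries.

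The 10 other names read from the imprinted region held 309 counts in control and 162 in treated libraries, of which miR-1247 gave 174 and 161. Of 54 miRNA genes annotated between DLK1 and DIO3, 14 had a name in the table, giving 15 names in all with both arms of miR-1247. Of the 10 names outside the 5, 6 had 5 or more counts in at least 1 library. miR-543 had 5, 40 and 13 counts in control replicates 1, 2 and 3 and 0 in each treated library, at least 50.4-fold lower, but did not pass the count filter. Control replicate 2 held 40 of its 58 control counts, and without that library the bound was 23.3; without any one treated library it was 31.2 to 36.0. In the fits that kept it, its log2 fold change lay between -8.78 and -7.18, and it passed in 7 of 8 (adjusted p = 0.0836 in edgeR without control replicate 2). With 0 counts in each treated library, this fitted value depends on the prior count and is no measure of size. miR-543 entered these fits by its control counts alone, so the passes are no support in themselves.

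Several names appeared in 1 control library only. miR-379-5p with 25 counts, miR-299-5p with 26 and miR-323a-3p with 5 were read in control replicate 2 alone, and their precursors lie within 3.8 kb of each other. miR-370-3p had 18 counts in control replicate 1 alone. Such isolated values were common in the table, where 66 of 1007 names had 15 or more counts in 1 library and 0 in the other 5, and 22 of these were in a control library. The remaining 4 names, miR-381-3p, miR-382-5p, miR-485-3p and miR-1247-5p, had 4 counts or fewer in every library. Apart from miR-1247, the 8 further names held 24, 97 and 14 counts in control replicates 1, 2 and 3 and 1, 0 and 0 in treated replicates 1, 2 and 3.

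miR-1247-3p stood apart within the region. Its precursor lies 494.7 kb beyond MIR412, on the opposite strand, from 101560287 to 101560422, in an exon of DIO3OS, the antisense transcript beside DIO3. This arm has been described in vesicles of metastatic liver cancer cells as a signal to fibroblasts. It had 43, 60 and 65 counts in control replicates 1, 2 and 3 and 60, 46 and 49 in treated replicates 1, 2 and 3, so its raw counts overlapped between the groups. On the CPM scale, which allows for the greater depth of the treated libraries, it was at 705 ± 192 in the controls and 250 ± 50.4 after treatment (SD, n = 3 each). The log2 fold change was -1.50 (SE 0.40, adjusted p = 0.0341 in edgeR). That call was lost in 9 of 18 alternatives (adjusted p = 0.0561 to 0.307), among them every fit that left out 1 library except the one without control replicate 1 (0.0297). Its ratio of control to treated rates was 2.82 (exact 95% Poisson interval 2.26 to 3.53, counting error only). The ratios of miR-127-3p, miR-409-3p and miR-412-5p were 161, 240 and 229. These intervals leave out the spread between libraries, so the difference between the ratios was not tested. Over the controls the chi-square per degree of freedom of miR-1247-3p was 4.39.

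**Figure D2:**
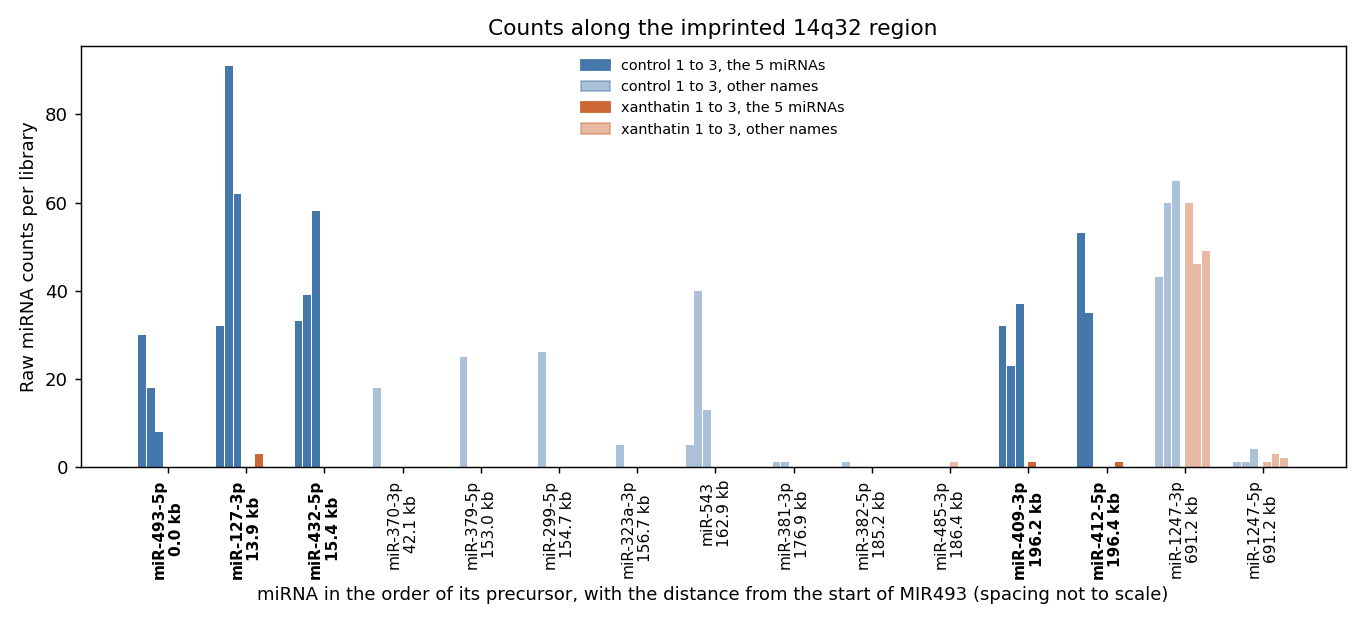
Raw counts per library (y axis, linear) of the 15 names of the imprinted region, in chromosomal order of their precursors, with the distance from the start of MIR493 under each name and spacing not to scale. The 3 left bars of a name are control replicates 1 to 3 and the 3 right bars treated replicates 1 to 3, in full colour for the 5 miRNAs and pale for the others. Bars of treated libraries above 3 counts appear only at miR-1247-3p, with 60, 46 and 49 counts.

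As a share of all miRNA counts, the 5 held 0.225%, 0.293% and 0.258% in control replicates 1, 2 and 3, with exact 95% binomial intervals from 0.193% to 0.336% over the 3. In treated replicates 1 and 2 they held 0.000419% and 0.00149%. In treated replicate 3 they held 0 of 204520 counts, with an upper limit of 0.0018% in the exact interval. The control shares of the 5 as a sum were more alike than those of the single miRNAs, at a mean of 0.259% ± 0.0343 (SD, n = 3). The 15 names of the region together held 0.405% ± 0.105 in control and 0.0237% ± 0.00349 in treated libraries. Of the 167 counts behind the treated value, miR-1247 gave 161.

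**Figure D3:**
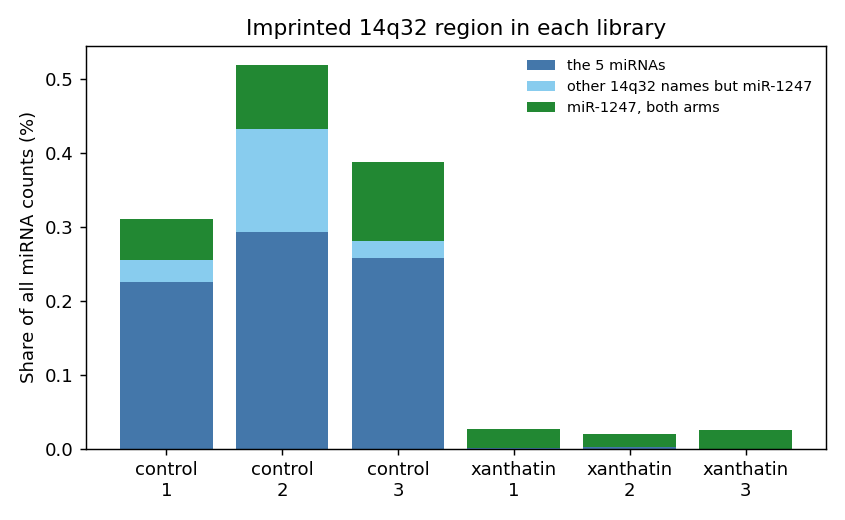
Share of all miRNA counts (y axis, percent, from 0) taken by the imprinted region in each of the 6 libraries, stacked as the 5 miRNAs, the other names except miR-1247, and both arms of miR-1247. The 5 miRNAs take 0.225% to 0.293% in control libraries, and miR-1247 makes up nearly the whole bar in treated libraries.

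Among all tested miRNAs, 8 of 254 (3.15%) had 3 counts or fewer in every treated library, and 6 (2.36%) had 0 in every one. The 8 were miR-127-3p, miR-409-3p, miR-432-5p and miR-493-5p together with miR-6892-5p, miR-4658, novel108_mature and novel135_mature. For comparison, 85 tested miRNAs had a control total between those of miR-493-5p (56 counts) and miR-127-3p (185 counts). Their median total in treated libraries was 123 counts, and 16 of them were called lower. Both the 85 and the 16 include miR-127-3p, miR-409-3p, miR-432-5p and miR-493-5p themselves.

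**Figure D4:**
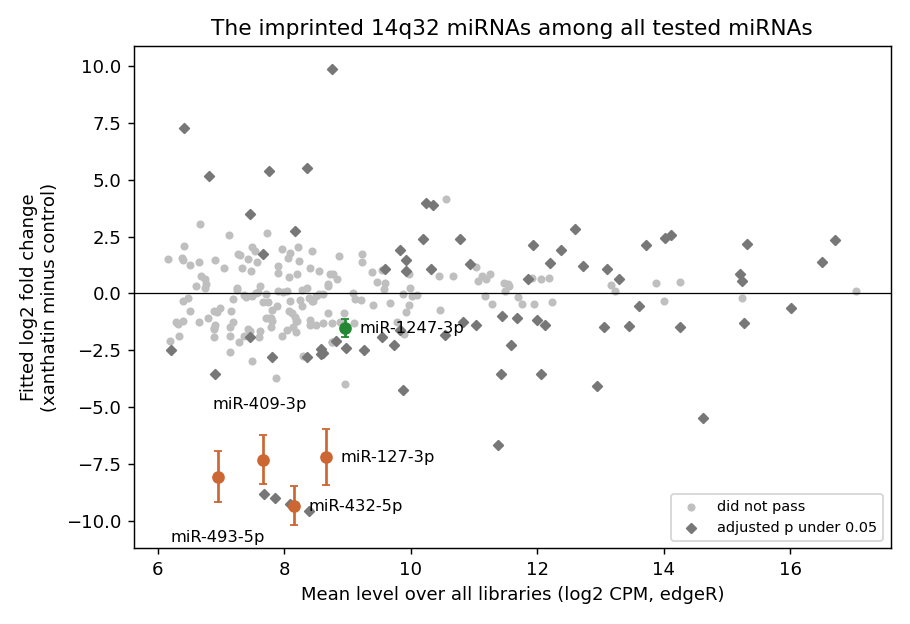
Fitted log2 fold change (y axis, xanthatin minus control) against the mean log2 CPM (x axis) of the 254 miRNAs tested in edgeR. Orange points with SE bars are the tested imprinted miRNAs, green is miR-1247-3p, and grey diamonds are other miRNAs at an adjusted p under 0.05. The orange points lie at -7.19 to -9.32, but for miR-432-5p and miR-493-5p, at 0 in treated libraries, the fitted value depends on the prior count and is no measure of size.

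The known miRNAs whose profile over the 6 libraries was most like that of the 4 tested imprinted miRNAs were ranked by Pearson's r of log2(CPM + 1) with their mean, over 173 candidates outside the region. The 6 highest were miR-6892-5p (0.996), miR-122-5p (0.993), miR-4658 (0.992), miR-365a-5p (0.991), miR-193b-5p (0.979) and miR-486-5p (0.976). The points share their libraries and the difference in depth, and the r values mostly follow the 2 groups. Only miR-6892-5p and miR-4658 also had 0 counts in every treated library. miR-122-5p, miR-365a-5p, miR-193b-5p and miR-486-5p, the last abundant in red blood cells, kept 42 to 256 counts in each treated library, where the 5 imprinted miRNAs had 3 or fewer.

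Markers of other cell types were read in all libraries. Of the blood and serum list 4 of 10 names were tested and 1, miR-486-5p, fell. The list held 2.04% to 3.11% of control counts and 2.05% to 2.18% of treated counts. In every library most of these were counts of miR-25-3p, at 963 to 1483 in control and 4231 to 5212 in treated libraries. That miRNA did not pass in edgeR (log2 fold change 0.52, adjusted p = 0.0513) but was higher in DESeq2 (adjusted p = 0.000506). miR-486-5p had 949, 432 and 497 counts in control replicates 1, 2 and 3 and 167, 139 and 115 in treated replicates 1, 2 and 3. miR-451a, a red cell marker, had at most 9 counts in any library. Of the stromal and endothelial list 5 of 11 names were tested, 2 fell (miR-143-3p and miR-10b-5p) and 1 rose (miR-100-5p). The list held 3.53% to 4.44% of control and 4.12% to 4.19% of treated counts. Most of these were counts of miR-100-5p, at 2127 to 2967 in control and 8095 to 10916 in treated libraries. miR-125b-5p was level (log2 fold change -0.0047, edgeR adjusted p = 0.992). DESeq2, limma-voom and limma-trend on CPM each called 4, with miR-126-3p lower as well. Its adjusted p was 0.0313, 0.0318 and 0.048 in these, against 0.075 in edgeR. With library totals only as the scale, the rise of miR-100-5p did not pass (log2 fold change 0.18, against 0.54, edgeR adjusted p = 0.22). Of the markers of smooth muscle and fibroblasts in this list, miR-145-5p had 5, 0 and 3 counts in control replicates 1, 2 and 3 and miR-214-3p had 39, 0 and 0, and both had 0 in every treated library. miR-199a-3p, listed as 1 name with miR-199b-3p, was read at 20, 2 and 1 in the controls, and treated libraries still held 3, 2 and 1. Of the muscle list 1 of 4 names was tested and fell, miR-1-3p, with 27, 19 and 17 counts in the controls and 17, 12 and 13 after treatment; with each of the 6 libraries left out in turn it did not pass (edgeR adjusted p between 0.0947 and 0.12). Neural names held 0.182% to 0.303% and 0.22% to 0.292% (1 of 7 tested, 0 called by edgeR, DESeq2 or limma, and 0 at an unadjusted p under 0.05). The tested name, miR-128-3p, passed in edgeR without control replicate 3 (adjusted p = 0.0454). The chromosome 19 cluster of placenta held 0.0487% to 0.103% and 0.0146% to 0.0264% (3 of 10 tested, 0 called by edgeR with TMM scaling, DESeq2 or limma, but 2 at an unadjusted p under 0.05 in edgeR). With library totals only, edgeR called 1 of these, miR-516b-5p (log2 fold change -2.24, adjusted p = 0.042). Of the liver list 7 of 9 names were tested, 3 fell and 1 rose, with 11.5% to 14.6% of control and 2.91% to 3.59% of treated counts; DESeq2 called 6. The rise, of miR-192-5p (edgeR adjusted p = 0.0399), was lost in 7 of 18 alternatives, among them library totals only (0.0816) and the fits without control replicate 1 or without any one treated replicate (0.0823 to 0.0943). The part of these lists in the lower counts of the imprinted miRNAs was not tested.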

How the data were processed

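The authors deposited, per the file headers, a raw count and a TPM value for each miRNA name in each of the 6 samples; within a library the TPM was proportional to the count. The submitters' processing notes name hg38 as build; how reads were aligned and counted is not given in the sources used here. Differences in counts of all miRNAs were tested by edgeR 4.0.16 under R 4.3.3 (quasi-likelihood F test on group, TMM scaling, default filter with a minimum count of 10, Benjamini-Hochberg adjustment, threshold 0.05). CPM uses all miRNA counts of a library times its TMM factor. Ratios compare counts pooled over a group per TMM-scaled total, with exact intervals (scipy 1.17.1). A group at 0 was set to a floor of 3 counts. Floors and intervals reflect counting error alone, because they rest on pooled counts and leave out the spread between libraries. The labels' protocols describe no molecular identifiers.

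The members, lists and tests were chosen with earlier results of these data known. Named were the 5 miRNAs, every other name of the region with 5 or more counts in a library, the tested miRNAs of 14q32 outside the region and the 6 names of most similar profile; other names were chosen after their values were seen. Alternatives were RLE, upper-quartile or no scaling factors, a library size taken from the TPM, no filter, a mean CPM of 10, DESeq2 1.42.0, limma 3.58.1 (voom, and trend on log2 of CPM or TPM plus 1), thinned libraries, leaving out each library and a replicate block. No 2 libraries held identical counts, and replicate pairs differed by a chi-square per degree of freedom of 16.2 to 21.3.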

Additional observations from a re-analysis of the deposited data

How the results depend on the processing

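Over 71 alternative values of the 4 tested imprinted miRNAs, 0 reversed and 70 stayed on the same side of the threshold. These miRNAs met the default count filter by their control counts alone and had 3 counts or fewer in every treated library. A reversal could hardly occur, so this tally is no support in itself. miR-493-5p did not pass with the replicate block (log2 fold change -8.02, adjusted p = 0.0748) and had too few counts in thinned libraries; adjusted p over its other alternatives reached 0.0493. Replicate numbers did not pair the samples: deviations of same-numbered libraries correlated at 0.09, -0.08 and -0.14, and the block called 3 of the 4, with 21 miRNAs higher and 33 lower in all. The count of miRNAs called higher, 34, was 21 with library totals only, 60 with DESeq2 and 22 to 30 without any one library. Library totals only moved the median log2 fold change of all tested miRNAs from -0.16 to -0.50, and the imprinted miRNAs were at -7.53 to -9.60. On log2(TPM + 1), which understates low levels, they were at -1.39 to -2.67. miR-432-5p and miR-493-5p had 0 counts in every treated library. Their fitted values here depend on the prior count, or on the 1 added before the log, and are no measure of size. The region's mean share in treated libraries was 0.0301% of known names, 0.0281% without novel550_mature and 0.000777% without miR-1247, an alternative chosen after seeing the data. Against the total implied by the TPM it was 0.00278% in control and 0.000191% in treated libraries. Single control libraries of 63965 to 80088 counts limit what can be said of names with under 10 counts.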

Other observations

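On the same chromosome band but outside the imprinted region, 7 names were read, and 1 was tested. miR-203a-3p, a miRNA of differentiating epithelium, had 215, 67 and 60 counts in control replicates 1, 2 and 3 and 55, 68 and 56 in treated replicates 1, 2 and 3. Its raw counts overlapped between the groups, but its CPM did not, at 799 to 2461 in control and 261 to 312 in the deeper treated libraries. On the TMM scale its log2 fold change was -2.27 (SE 0.54, adjusted p = 0.0212 in edgeR), and -1.57 without control replicate 1. The call was lost without any one treated replicate (adjusted p = 0.0717 to 0.0809). miR-151b had 30 counts in control replicate 1 and 0 elsewhere, and miR-342-5p had 34 counts in treated replicate 3 and 0 elsewhere. miR-345-5p had 0, 0 and 14 counts in control replicates 1, 2 and 3 and 38, 1 and 3 in treated replicates 1, 2 and 3.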
